A study of Mus musculus with 10 samples.

Results

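Nuclear-encoded genes of the mitochondrial respiratory chain were followed in hippocampal RNA of mice with and without DLK, the dual leucine zipper kinase of neurons, which is encoded by Map3k12. The set held 32 genes of complexes I to V and cytochrome c, chosen by name from the pathway, with earlier results of these data known. Each gene was represented by its brightest probe among those whose RefSeq transcript belongs to the gene. All 32 were found among the 23599 features tested. Hippocampus came from 5 DLK wild-type (WT) mice and 5 DLK conditional knockout (cKO) mice, all adult, and both genotypes had eaten tamoxifen chow for 3 weeks, the treatment that switches on the deletion. The sources used here do not state the driver line, the exons removed or the age in weeks and sex of the animals, so the cell types that lost DLK are not known here. Every array paired the Cy5-labelled sample of 1 mouse with Cy3-labelled Universal mouse reference RNA, without dye swaps. Values are log2 ratios of sample over reference, a difference is cKO minus WT, and values by mouse are listed in the order of replicates 1 to 5. A ratio contains the dye effect and the reference's own level, so ratios of different genes do not rank their levels.

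The respiratory chain moves electrons from NADH and succinate to oxygen in the inner mitochondrial membrane. Complexes I, III and IV pump protons as electrons pass, complex II feeds in electrons from succinate without pumping, cytochrome c carries electrons from complex III to complex IV, and complex V uses the proton gradient to make ATP. Apart from complex II and cytochrome c, which are encoded in the nucleus alone, these assemblies combine nuclear and mitochondrial gene products. Neurons depend on this pathway for ion pumping and synaptic transmission, while astrocytes are known for a more glycolytic metabolism.

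Arrays were of even quality, with 69.7% to 76.1% of probes well above background in the sample channel and correlations between arrays of 0.980 to 0.996. Map3k12 fell by 1.41 in log2 ratio (SE 0.12, adjusted p = 0.000997 in limma), with ratios of 1.74 to 2.15 in WT and 0.11 to 0.68 in cKO mice. It was the only 1 of 23599 features to pass, and when marked spots were left in the background fit it did not (−1.26, adjusted p = 0.970). All 12 neuron markers, among them Prox1 of granule cells and Wfs1 of CA1 pyramidal cells, were well above background on all 10 arrays. Their list means were 4.11 to 4.27 in WT and 4.19 to 4.38 in cKO mice. Of the 12, 11 were higher in cKO mice, 1 of them (Gad2) at an unadjusted p under 0.05. All 15 measured choroid plexus and ependyma markers (of 16 listed, without Cldn2) were also above background on all 10 arrays and higher in cKO mice, 8 of them at an unadjusted p under 0.05, with list means of 0.22 to 1.26 in WT and 1.12 to 2.27 in cKO mice. Oligodendrocyte markers were higher in 12 of 14 genes, 8 of them at an unadjusted p under 0.05, with list means of 2.83 to 3.30 in WT and 3.26 to 3.51 in cKO mice. Endothelium and pericyte markers were higher in 10 of 12 genes, 3 of them at an unadjusted p under 0.05, and their list means did not overlap, at 1.93 to 2.025 in WT and 2.029 to 2.20 in cKO mice. No marker of these lists passed the adjusted threshold. Mice cKO 1, 3, 4 and 5 were on slide 1, WT 1, 2 and 4 with cKO 2 on slide 2, and WT 3 and 5 on slide 3.

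No respiratory chain gene differed between the genotypes beyond the spread between mice. Of 32 genes, 0 passed the threshold of an adjusted p under 0.05 in limma, where 0.00424% of all features passed. At an unadjusted p under 0.05 the count was also 0, where 3.87% of all features were below it (2.84% higher and 1.03% lower in cKO mice). WT and cKO values overlapped for all 32 genes, while 0.763% of all features had no overlap (0.521% with all cKO mice above and 0.242% with all below). Higher values in cKO mice were seen for 19 genes and lower values for 13, beside 54.8% higher among all features. The median difference was 0.0127 against 0.00823 over all features. With median centring in place of loess 0 of 32 genes were higher, at a median of −0.0889 against −0.0573 over all features, so the direction of these small differences depends on the scaling. Cox6c had the largest difference, −0.44, and also the widest interval. For the other 31 genes the 95% intervals lay between −0.28 and 0.33. All 32 genes were well above background in both channels on all 10 arrays, and all were in the brightest 10% of features. None was saturated in Cy5, the only channel checked for this. WT ratios ran from 0.13 for Sdhc to 1.99 for Ndufb10, with all 32 above 0, as were 55.8% of all features. Averaged over the genes, WT mice were at 1.20 ± 0.05 (SD, n = 5) and cKO mice at 1.20 ± 0.08 (SD, n = 5). By mouse it was 1.25, 1.18, 1.20, 1.25 and 1.13 in WT and 1.19, 1.13, 1.28, 1.11 and 1.27 in cKO mice, so the cKO mice extended slightly beyond the WT mice at both ends. Choroid plexus, oligodendrocyte and vascular markers, given above, had higher list means in most or all cKO samples. Neuron, astrocyte and microglia markers were also higher in 11 of 12, 9 of 11 and 9 of 10 genes. The part of these marker lists in the respiratory chain values was not tested. In bulk tissue fewer cells of a type and less RNA per cell cannot be told apart. With slide as a fixed block, where the contrast rests on cKO mouse 2, the median difference was −0.113 against 0.00115 over all features. Here 9 of 32 genes were higher, and within slide 2 alone the median difference was the same.

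**Figure D1:**
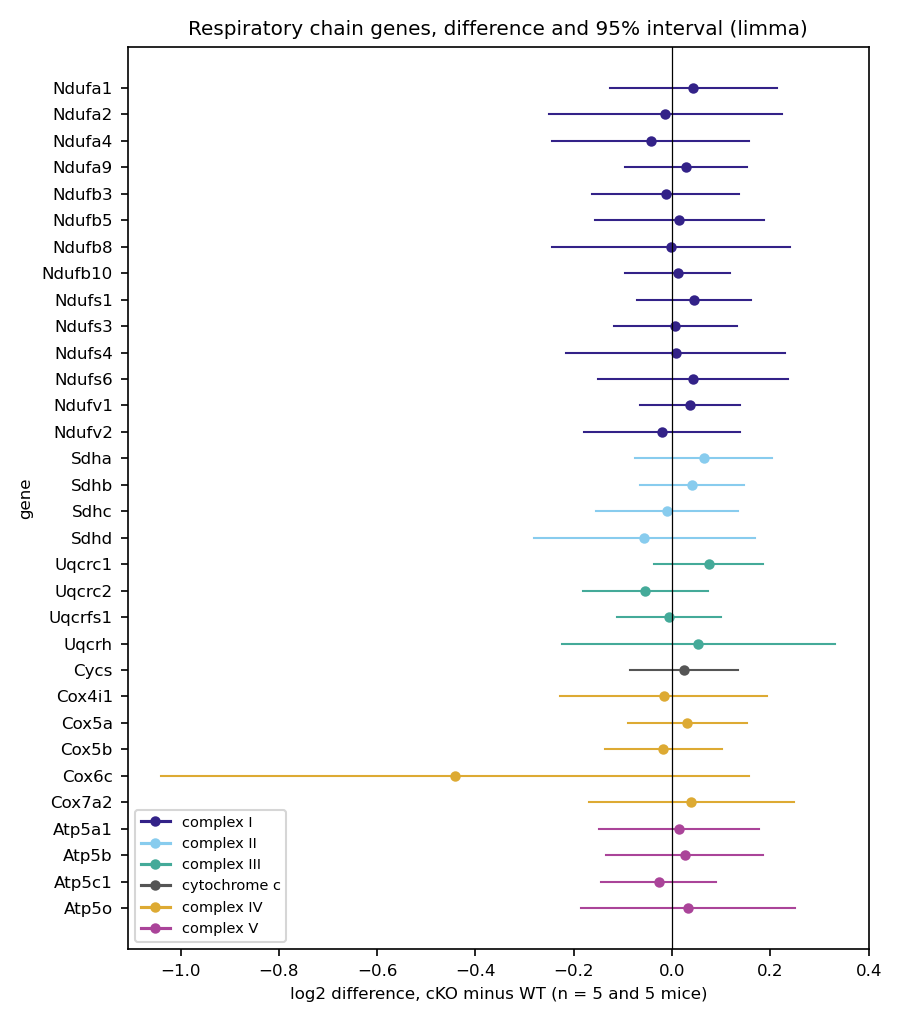
Fitted log2 difference, cKO minus WT, of each of the 32 genes with its 95% interval from limma (n = 5 and 5 mice), coloured by complex. All intervals cross 0. Cox6c stands at −0.44 with an interval from −1.04 to 0.16, and the other 31 intervals lie between −0.28 and 0.33.

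Complex I, the NADH dehydrogenase and entry point of most electrons, was represented by 14 genes, with a median difference of 0.0092 and 9 of 14 higher. Ndufs1, the large iron-sulphur subunit of the electron path, had the highest difference. Its ratios were 0.80, 0.79, 0.80, 0.72 and 0.90 in WT and 0.92, 0.84, 0.82, 0.89 and 0.76 in cKO mice, a difference of 0.04 (SE 0.05). The highest cKO value was just above the highest WT value, and the groups overlapped. Ndufa4, a small subunit first assigned to complex I and now placed in complex IV, had the lowest difference. Its ratios were 1.85, 1.71, 1.68, 1.85 and 1.59 in WT and 1.56, 1.57, 1.93, 1.52 and 1.88 in cKO mice, a difference of −0.04 (SE 0.09). Mice cKO 3 and cKO 5 were above every WT mouse and the other 3 cKO mice below every WT mouse, a split within the cKO group. The other 12 genes had differences between those of Ndufa4 and Ndufs1.

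Ndufs4 and Ndufs6, accessory subunits next to the NADH-oxidising arm, varied together most closely of any pair in the complex. Ndufs4 ratios were 1.12, 0.88, 0.88, 1.02 and 0.64 in WT and 0.83, 0.77, 1.09, 0.76 and 1.13 in cKO mice. Ndufs6 ratios were 1.62, 1.46, 1.48, 1.59 and 1.28 in WT and 1.50, 1.41, 1.69, 1.33 and 1.71 in cKO mice. In both genes WT 5 was the lowest WT mouse and cKO 3 and cKO 5 the highest cKO mice. Once the mean of each genotype was subtracted, their correlation over the 10 mice was 0.976. Ndufv1, the flavoprotein that binds NADH, ran against the accessory subunits but within a narrow range, with ratios of 1.23, 1.26, 1.21, 1.22 and 1.25 in WT and 1.30, 1.33, 1.22, 1.29 and 1.22 in cKO mice. Ndufa2, an accessory subunit of the same arm, had ratios of 0.96, 0.89, 0.86, 1.03 and 0.66 in WT and 0.72, 0.65, 1.05, 0.73 and 1.20 in cKO mice. The 2 genes had the lowest correlation within complex I, −0.858, but with median centring it was 0.159. The spread within genotype was 0.04 for Ndufv1 and 0.20 for Ndufa2 on the log2 scale, so the opposition is one of small movements in Ndufv1 against larger ones in Ndufa2.

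Complex II, succinate dehydrogenase, shared with the tricarboxylic acid cycle, had a median difference of 0.0152 with 2 of 4 genes higher. Sdha, the flavoprotein that oxidises succinate, had ratios of 1.31, 1.36, 1.33, 1.27 and 1.53 in WT and 1.49, 1.47, 1.32, 1.51 and 1.34 in cKO mice, a difference of 0.06 (SE 0.06). Sdhd, a membrane anchor that helps to bind ubiquinone, had ratios of 0.27, 0.31, 0.32, 0.28 and −0.02 in WT and 0.05, −0.05, 0.39, 0.06 and 0.43 in cKO mice, a difference of −0.06 (SE 0.10). The groups overlapped for both genes, and the mice that were high for Sdha (WT 5, cKO 1, cKO 2 and cKO 4) were the low ones for Sdhd. Their correlation over the 10 mice was −0.883, and with median centring it was −0.200. Sdhc, the other membrane anchor, had ratios of 0.24, 0.12, 0.03, 0.14 and 0.10 in WT and 0.02, 0.01, 0.16, 0.08 and 0.31 in cKO mice and ran with Sdhd (0.682). Sdhb, the iron-sulphur subunit, lay between 1.62 and 1.78 in all 10 mice.

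Because Sdha and Sdhd encode subunits of 1 enzyme and ran in opposite directions between mice in the loess-normalised ratios, the 250 bases before each start are shown, from RefSeq's GRCm38.p6 gene models. That build differs from the one named in the array headers, and the windows were matched by symbol. The Sdha window is chr13:74350241-74350490 and that of Sdhd is chr9:50603850-50604099, both on the minus strand and printed 5′ to 3′ along the gene.
Sdha: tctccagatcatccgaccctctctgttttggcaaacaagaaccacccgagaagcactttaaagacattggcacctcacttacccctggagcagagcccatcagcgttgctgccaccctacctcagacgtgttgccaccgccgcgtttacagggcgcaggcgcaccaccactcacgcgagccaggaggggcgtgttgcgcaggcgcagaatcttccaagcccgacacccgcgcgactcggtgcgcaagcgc
Sdhd: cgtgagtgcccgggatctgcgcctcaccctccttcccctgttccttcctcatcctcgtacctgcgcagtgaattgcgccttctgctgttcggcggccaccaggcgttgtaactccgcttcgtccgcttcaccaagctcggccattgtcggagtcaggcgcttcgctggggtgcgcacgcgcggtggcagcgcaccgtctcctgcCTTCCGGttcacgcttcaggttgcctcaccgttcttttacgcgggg
Capitals mark a match to the ETS-family motif CCGGAAG on either strand, here read on the opposite strand and starting 46 bases before the start of Sdhd. The Sdha window holds no exact match to that motif or to the other 3 motifs searched.

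Complex III, which passes electrons from ubiquinol to cytochrome c, had a median difference of 0.0238 with 2 of 4 genes higher. Uqcrc1, a core protein of the matrix side, had the highest difference of the 32 genes, 0.07 (SE 0.05, 95% interval −0.04 to 0.19). Its ratios were 1.01, 0.85, 0.87, 0.88 and 0.83 in WT and 0.95, 0.95, 0.98, 0.92 and 1.02 in cKO mice. All 5 cKO mice exceeded 4 of the WT mice, and WT 1 alone made the groups overlap. Uqcrc2, the partner core protein, had ratios of 1.10, 1.12, 1.22, 1.34 and 1.10 in WT and 1.15, 1.10, 1.16, 1.08 and 1.11 in cKO mice, a difference of −0.05 (SE 0.06). All 5 cKO values were below the WT mean, which was drawn up by WT 4 and WT 3, and the correlation of the 2 core proteins was −0.107 (0.725 with median centring). Uqcrh, the hinge protein that aids docking of cytochrome c, had one of the widest spreads, with ratios of 1.65, 1.57, 1.55, 1.72 and 1.20 in WT and 1.48, 1.42, 1.90, 1.30 and 1.85 in cKO mice. The iron-sulphur protein gene Uqcrfs1 stayed between 1.19 and 1.33 in all 10 mice and correlated with Uqcrh at 0.687, the highest value in the complex. Cycs, for cytochrome c itself, also known for its release in apoptosis, had ratios of 0.63, 0.68, 0.67, 0.67 and 0.74 in WT and 0.74, 0.61, 0.75, 0.75 and 0.65 in cKO mice, a difference of 0.02 (SE 0.05). Its groups overlapped throughout.

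Complex IV, the cytochrome c oxidase that reduces oxygen, had a median difference of −0.0169 with 2 of 5 genes higher. Cox7a2, a small structural subunit, had the highest difference, 0.04 (SE 0.10), with ratios of 0.73, 0.66, 0.69, 0.82 and 0.46 in WT and 0.72, 0.54, 0.95, 0.48 and 0.87 in cKO mice. Cox4i1, the ubiquitous form of the regulatory subunit 4, had ratios of 1.32, 1.28, 1.27, 1.40 and 1.09 in WT and 1.15, 1.12, 1.53, 1.04 and 1.43 in cKO mice. Cox5b had ratios of 1.49, 1.44, 1.44, 1.49 and 1.40 in WT and 1.40, 1.38, 1.55, 1.34 and 1.51 in cKO mice. The last 2 genes followed the same mice, with a correlation of 0.981, the highest within any complex. Cox5a, which binds next to Cox4i1 in the enzyme, did not follow them, with ratios of 1.30, 1.38, 1.22, 1.19 and 1.38 in WT and 1.27, 1.37, 1.37, 1.33 and 1.29 in cKO mice.

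Cox6c, another small nuclear subunit of the oxidase, stood apart from every other gene of the set. Its ratios were 1.96, 0.69, 1.88, 1.94 and 1.63 in WT and 1.81, 1.65, 0.91, 0.57 and 0.96 in cKO mice. Mice WT 2, cKO 3, cKO 4 and cKO 5 were between 0.57 and 0.96, the other 6 mice were between 1.63 and 1.96, and no mouse lay between. Low mice occurred in both genotypes and on 2 slides, and cKO 1, on the same slide as the 3 low cKO mice, was high. WT mice averaged 1.62 ± 0.54 (SD, n = 5) and cKO mice 1.18 ± 0.53 (SD, n = 5), a difference of −0.44 (SE 0.28, 95% interval −1.04 to 0.16). It did not pass (unadjusted p = 0.134 in limma, exact two-sided permutation p = 0.230). The spread within genotype, 0.532, was at percentile 99.7 of all features. The spot was bright in both channels. Cy5 signals were 128571, 71988, 106492, 132522 and 103240 in WT and 114285, 103186, 75715.5, 63837.5 and 67956 in cKO mice. Cy3 signals, from the same reference RNA on each array, were 42433, 50394.5, 39355.5, 40482 and 38503 beside the WT samples and 43343, 44016, 45939.5, 51453.5 and 52592.5 beside the cKO samples. The 4 low mice thus had the lowest Cy5 and also the highest Cy3 signals. Leaving out WT 2 moved the difference to −0.67 and leaving out cKO 4 to −0.29, while with slide as a fixed block or within slide 2 it was 0.12.

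The same 4 mice were low in a few other probes, which were looked up after the Cox6c values had been seen. Probe A_55_P2001963, without a gene name here, had ratios of 2.10, 0.85, 2.0, 2.12 and 1.82 in WT and 1.97, 1.80, 1.04, 0.73 and 1.06 in cKO mice. It and another unnamed probe, A_55_P1980721, were the features most like Cox6c of all 23599 by Pearson correlation over the 10 mice. Next was Cryaa (0.930), which is not among the 10 measured genes on either side of Cox6c. Its ratios were 0.32, 0.09, 0.22, 0.28 and 0.22 in WT and 0.27, 0.18, 0.12, −0.02 and 0.01 in cKO mice, with the same 4 mice lowest. Unnamed features at 0.922 and 0.921 followed. Vps13b, a lipid-transfer protein of the Golgi, is the next measured gene to Cox6c in RefSeq's order on chromosome 15. Its brighter probe had ratios of 0.35, −0.40, 0.37, 0.19 and 0.68 in WT and 0.34, 0.41, −0.69, −0.45 and −0.52 in cKO mice. The other Vps13b probe had ratios of 0.04, −0.15, −0.01, −0.07 and 0.24 in WT and 0.01, 0.07, −0.35, −0.23 and −0.41 in cKO mice. On both probes the lowest mice were cKO 3, cKO 4, cKO 5 and WT 2, which are the low mice of Cox6c. Polr2k, an RNA polymerase subunit and the neighbour on the other side, had ratios of −0.73, −0.73, −0.82, −0.57 and −1.18 in WT and −1.05, −1.15, −0.58, −1.17 and −0.59 in cKO mice, and its lowest mice, WT 5, cKO 4, cKO 2 and cKO 1, were others except for cKO 4. Spag1, the next measured gene beyond Polr2k, had a rank correlation (Spearman) with Cox6c of 0.782 over the 10 mice. It was 0.539 for Vps13b and 0.261 for Polr2k. The lowest among 10 measured genes on each side was −0.697, for Matn2. By Pearson correlation Vps13b was at 0.865, Spag1 at 0.724, Polr2k at −0.048 and the lowest, Grhl2, at −0.711. The order of Vps13b and Spag1 thus depended on the measure, and the mice fall into separate groups of values, which weighs on Pearson correlations. Spread within genotype was 0.462 for Vps13b and 0.117 for Spag1. As Spag1 was the highest by rank of the 10 genes on each side, it does not settle whether likeness to Cox6c was limited to 1 side.

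**Figure D2:**
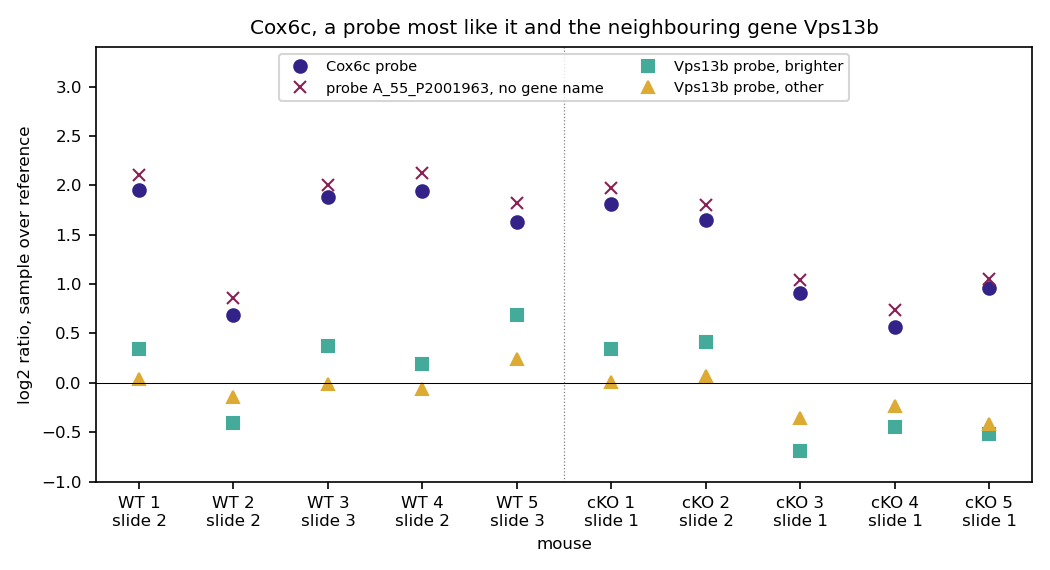
Log2 ratio of sample over reference by mouse, with the slide named under each mouse, for the Cox6c probe, the unnamed probe most like it and the 2 Vps13b probes. WT 2, cKO 3, cKO 4 and cKO 5 lie lower than the other 6 mice on the Cox6c probe, at 0.57 to 0.96 against 1.63 to 1.96, and on both Vps13b probes.

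Complex V, the ATP synthase, had a median difference of 0.0197 with 3 of 4 genes higher. Atp5a1 and Atp5b, the alpha and beta subunits of the catalytic head, varied together. Atp5a1 ratios were 1.60, 1.74, 1.63, 1.48 and 1.87 in WT and 1.75, 1.69, 1.58, 1.77 and 1.60 in cKO mice. Atp5b ratios were 1.51, 1.67, 1.60, 1.44 and 1.80 in WT and 1.69, 1.70, 1.59, 1.67 and 1.49 in cKO mice, and the correlation of the 2 genes was 0.931. Atp5o, a subunit of the stalk that holds the head in place, had the highest difference, 0.03 (SE 0.10). Its ratios were 0.87, 0.86, 0.86, 0.88 and 0.56 in WT and 0.76, 0.65, 1.08, 0.66 and 1.04 in cKO mice. WT 5, the highest mouse for both catalytic subunits, was the lowest for Atp5o, and the correlation of Atp5a1 with Atp5o was −0.770 (−0.0641 with median centring). Atp5c1, the gamma subunit of the central shaft, had the lowest difference, −0.03 (SE 0.05), with ratios of 1.04, 1.12, 1.08, 1.11 and 1.02 in WT and 1.09, 0.94, 1.14, 0.98 and 1.08 in cKO mice.

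Atp5b and Atp5o were another pair of subunits of 1 enzyme that varied in opposite directions in the loess-normalised ratios, and their windows are shown for the same reason as those of complex II. The Atp5b window is chr10:128083057-128083306 on the plus strand and the Atp5o window chr16:91931631-91931880 on the minus strand, again the 250 bases before the start in GRCm38.p6.
Atp5b: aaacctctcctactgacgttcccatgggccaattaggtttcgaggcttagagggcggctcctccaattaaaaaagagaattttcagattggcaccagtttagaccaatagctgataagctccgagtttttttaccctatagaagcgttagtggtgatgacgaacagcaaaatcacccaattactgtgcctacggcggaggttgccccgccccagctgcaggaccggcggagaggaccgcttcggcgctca
Atp5o: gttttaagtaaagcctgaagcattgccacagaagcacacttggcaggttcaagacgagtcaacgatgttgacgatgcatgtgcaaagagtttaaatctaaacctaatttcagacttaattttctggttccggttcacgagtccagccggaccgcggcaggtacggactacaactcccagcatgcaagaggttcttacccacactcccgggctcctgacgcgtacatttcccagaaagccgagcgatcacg
Neither window has capitals, as none of the motifs was found in it. Windows were found for 25 of the 32 genes. NRF1 and GABP, an ETS-family factor, are known regulators of nuclear respiratory genes. On both strands and without overlap between the motifs, the NRF1 motif, a palindrome, was in 0 of 25 windows (0.877% of 27025 genes with a window), and the ETS motif in 3, those of Ndufs3, Sdhd and Uqcrh (12% against 7.83%). The YY1 motif AANATGGC was in the windows of Ndufb5 and Ndufb10 (8% against 4.49%), and the CRE motif TGACGTCA in those of Uqcrfs1 and Cycs (8% against 1.77%). A match describes letters in these windows only. Sdhd and Uqcrh, with the ETS motif, followed the same mice, and Ndufs3, also with it, did not.

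Among the genes, 6 had further probes, 7 in all, and none of these passed. Their differences lay between −0.02 (Sdhc) and 0.11 (Ndufb5). The further probes of Uqcrh, Ndufb5, Atp5c1, Sdhc and Sdhb correlated over the 10 mice with the brightest probe of their gene at 0.998, 0.923, 0.814, 0.764 and 0.438. Both further Cycs probes did not follow the brightest one (−0.03 and 0.07), so the mouse-to-mouse values of Cycs depend on the probe.

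The rest of the pathway was followed with lists of genes not picked for their direction here, and 0 of their 145 measured genes passed. Of 23 other complex I subunits 16 were higher (median difference 0.0137), from Ndufb4 at −0.06 (SE 0.14) to Ndufa13 at 0.07 (SE 0.05). Of 16 other subunits of complexes III and IV 13 were higher (median 0.0356), from Cox4i2, an alternative form of subunit 4, at −0.07 (SE 0.08) to Cox8b, a muscle form of subunit 8, at 0.27 (SE 0.25). Cox8b was spread by cKO 5 at 2.43 and cKO 1 at 0.59. Of 13 other complex V genes 7 were higher (median 0.00534), and Atp5g1, which encodes the proton-carrying ring subunit, was higher in all 5 cKO than in all 5 WT mice, with ratios of 1.09 to 1.21 in WT and 1.23 to 1.32 in cKO mice. It was the only one of the 145 genes without overlap, where 0.763% of all features had none. Its difference was 0.10 (SE 0.05) and did not pass, and Atp5md was lowest at −0.04 (SE 0.14). Of 41 assembly factors 18 were higher (median −0.00501), from Cox19 at −0.12 (SE 0.11) to Ndufaf4 at 0.08 (SE 0.06), and Lyrm7 was not measured. Among 18 regulators of mitochondrial biogenesis 12 were higher (median 0.0265). Esrra, the oestrogen-related receptor alpha that drives respiratory genes together with PGC-1 coactivators, was the only one of the 145 genes at an unadjusted p under 0.05, where 3.87% of all features were below it, at 0.21 (SE 0.06, limma adjusted p = 0.99995). Its ratios were 1.13, 1.17, 1.09, 1.07 and 1.11 in WT and 1.26, 1.38, 1.46, 1.16 and 1.38 in cKO mice, so 4 of 5 cKO mice were above all WT mice. Tfb1m, a mitochondrial ribosomal RNA methyltransferase, was lowest in that list at −0.08 (SE 0.07).

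Among genes of carbon metabolism upstream of the chain 0 passed, and their counts stand beside the 54.8% of all features that were higher. Of 17 genes of the tricarboxylic acid cycle and pyruvate dehydrogenase 14 were higher (median 0.0450), from Suclg2 at −0.02 (SE 0.14) to Ogdh, a subunit of the oxoglutarate dehydrogenase complex, at 0.10 (SE 0.08). Of 17 glycolytic genes 13 were higher (median 0.0495), from Hk2, a hexokinase, at −0.05 (SE 0.07) to Ldhb, a lactate dehydrogenase, at 0.16 (SE 0.09). Among 82 ribosomal protein genes, a list added after the data had been seen because of its likeness to the respiratory genes between mice, 30 were higher and 52 lower (median −0.0106), from Rpl39l at −0.19 (SE 0.13) to Rps4l at 0.11 (SE 0.08).

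While genotype did not separate these genes, mice within a genotype did, and many of the genes moved together. For each pair of genes a Pearson correlation over the 10 mice was taken after each genotype's mean had been subtracted. All points share arrays, the reference RNA and high brightness, so these are descriptions without a test. The median was 0.623 over the 119 pairs within a complex, 71 of them above 0, and 0.287 over the 377 pairs between complexes, 213 of them above 0. Over all pairs of tested features it was 0.0055, and over pairs of features at least as bright as the dimmest of the 32 genes 0.0485. The quartiles of those bright pairs were −0.6505 and 0.7135. All 496 pairs of the 32 genes had quartiles of −0.4055 and 0.7765 and a median of 0.3275. Strong correlations of both signs were thus common at this brightness. The figure within complexes was set by complex I, which gave 91 of the 119 pairs at a median of 0.668. It was 0.404 within complex III, −0.0492 within complex IV, −0.196 within complex II and −0.445 within complex V. With median centring in place of loess, however, these values were 0.556, 0.378, 0.492 and 0.501, complex I was at 0.759, and the pairs between complexes at 0.652. The signs within complexes II, IV and V therefore depend on the normalisation, and the median within complex II was also above 0 with marked spots left in the background fit (0.106). Within complex III the sign was not fixed either, at −0.239 to 0.672 over 30 alternatives. Within complex IV the median ran from −0.252 to 0.1105 when a mouse was left out. The closest pairs between complexes were as close as those within, such as Uqcrh with Cox4i1 at 0.983 and, in the opposite direction, Ndufb8 with Sdha at −0.974.

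**Figure D3:**
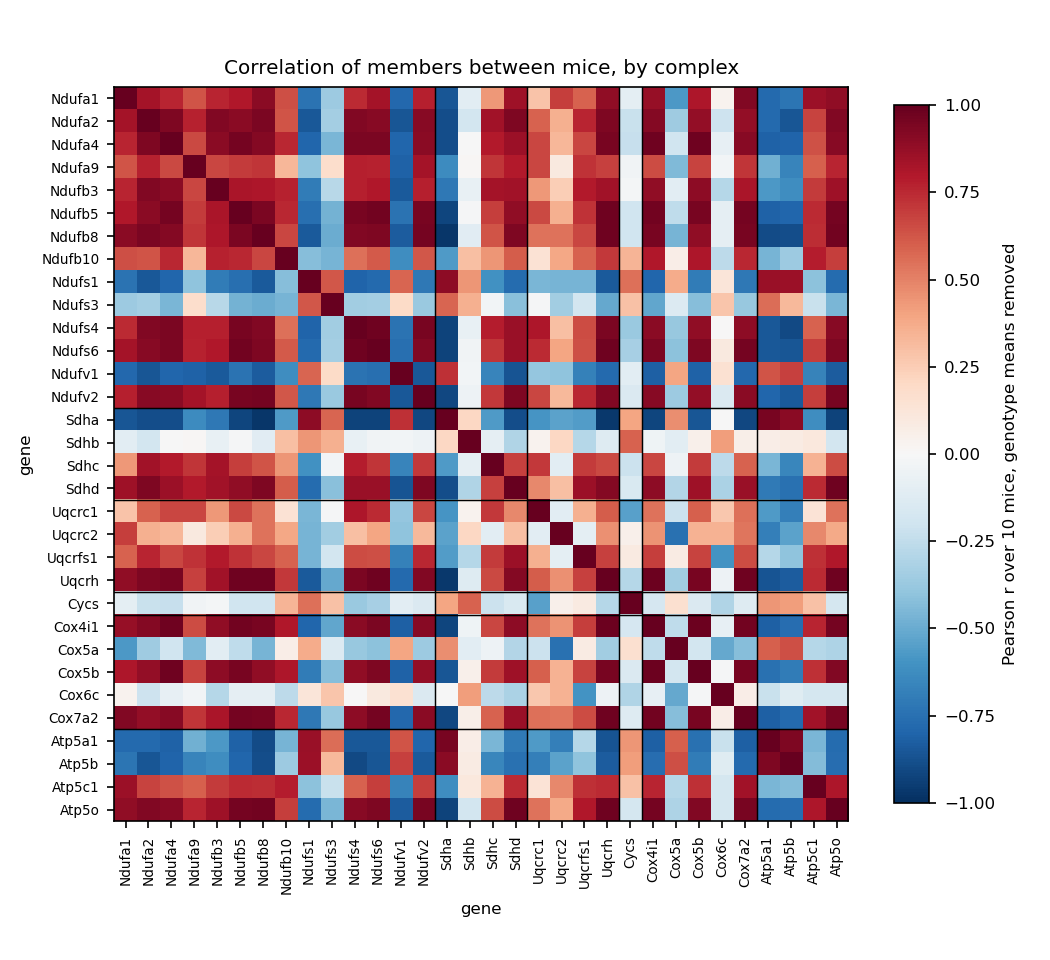
Pearson correlation over 10 mice, genotype means removed, for every pair of the 32 genes in order of complex, with red above 0 and blue below. Ndufs1, Ndufv1, Sdha, Atp5a1 and Atp5b form blue bands against most of the set, while most pairs of Sdhb, Cycs and Cox6c are pale.

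The shared movement was summarised by the leading component of the 32 genes over mice, which held 65.8% of their variance. Its scores were 0.17, −0.01, 0.02, 0.28 and −0.47 in WT and −0.18, −0.35, 0.44, −0.35 and 0.44 in cKO mice, so both genotypes contained high and low mice. Of the 32 genes 15 correlated with it above 0.8 and 5 below −0.5, beside 11.8% and 23.2% of all features. The component was made from these 32 genes, so their shares are partly fixed by construction. Among complex I genes, the 10 accessory subunits (Ndufa4 counted among them) all had positive values, from 0.696 for Ndufb10 to 0.985 for Ndufb8. The 4 core subunits were split, with Ndufv1 at −0.845, Ndufs1 at −0.827, Ndufs3 at −0.430 and Ndufv2 at 0.957. In complex II the catalytic Sdha was at −0.952 and the anchor Sdhd at 0.940. In complex V the catalytic Atp5a1 and Atp5b were at −0.849 and −0.861 and the stalk subunit Atp5o at 0.977. The 5 genes below −0.5 are subunits of catalytic heads or of the electron entry path. Other electron-path subunits were not among them, such as Ndufv2 and the iron-sulphur subunit Sdhb (−0.0983). Atp5c1, the shaft subunit of complex V, was at 0.744. The grouping by role was made after the values were seen, and the component was taken from the loess-normalised ratios only.

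**Figure D4:**
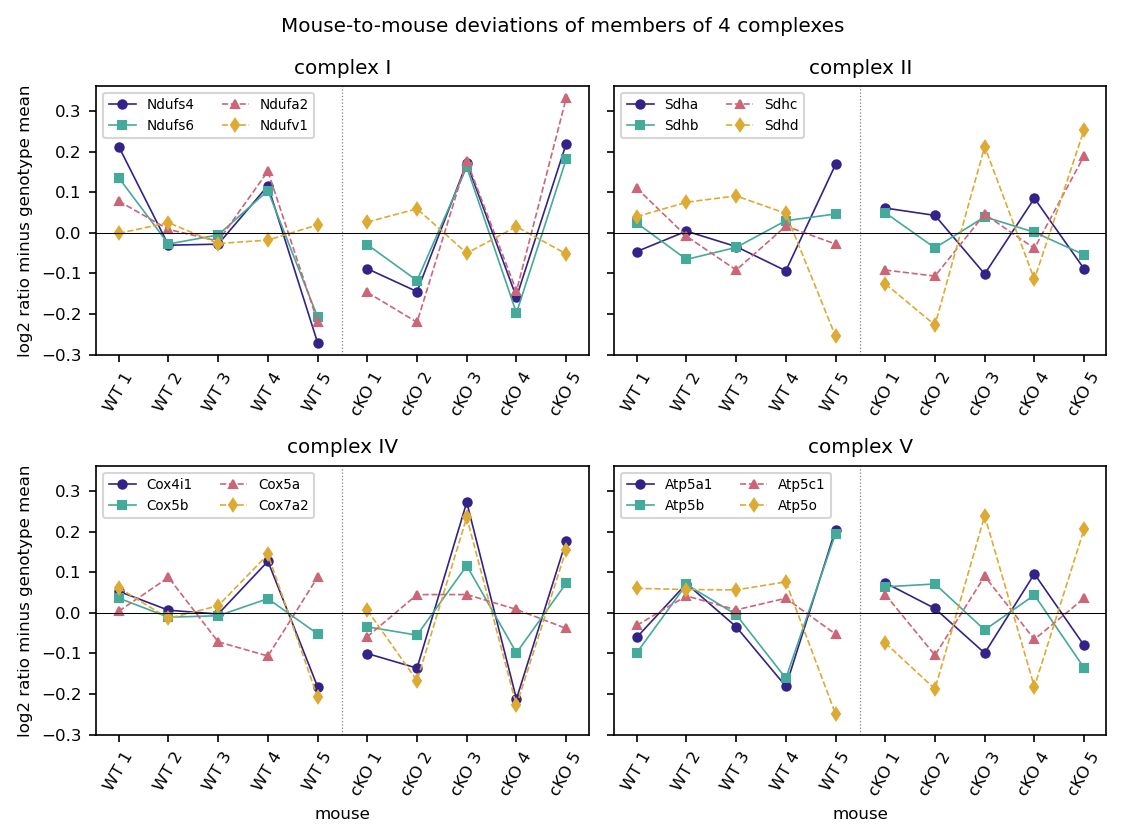
Log2 ratio minus the mean of its genotype by mouse, for 4 genes each of complexes I, II, IV and V, with WT mice left and cKO mice right of the dotted line. Ndufs4, Ndufs6, Ndufa2, Sdhd, Cox4i1, Cox7a2 and Atp5o are low in WT 5, cKO 2 and cKO 4 and high in cKO 3 and cKO 5, and Sdha, Atp5a1 and Atp5b run the other way.

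The component was not particular to respiratory genes. The leading component of all 23599 features, with 35.2% of their variance, correlated with it at 0.968 (Spearman rho 0.952), and at 0.960 without the 2 mice farthest from the median. Other structural genes of the chain followed it, with median correlations of 0.912 for complex I, 0.918 for complexes III and IV and 0.935 for complex V. Ribosomal protein genes did so as closely, at a median of 0.934 with 64 of 82 above 0.8, and their own pairs correlated at a median of 0.879. Assembly factors had a median of 0.697 and biogenesis regulators 0.0638. Glycolytic genes ran the opposite way, at −0.911 with 14 of 17 below −0.5, as did genes of the tricarboxylic acid cycle at −0.717. The brightest 10% of features, which hold all 32 genes, had a median of 0.463, and dimmer classes of the same size lay between −0.0628 and 0.134. Markers of astrocytes (0.889, 11 of 11 above 0) and microglia (0.799, 10 of 10 above 0) followed the component, while hippocampal neuron markers were at −0.363 (4 of 12 above 0). Astrocyte list means were 4.25 to 4.69 in WT and 4.31 to 4.94 in cKO mice, and microglia list means were 2.14 to 2.60 in WT and 2.34 to 2.72 in cKO mice. Oligodendrocyte markers were at 0.390 (12 of 14 above 0), endothelium and pericyte markers at 0.265 (10 of 12) and choroid plexus and ependyma markers at 0.253 (13 of 15). The array with the lowest median Cy5 signal, cKO 5 (146), had the highest score on the component. WT 5, with the highest signal (202), had the lowest score, while WT 4 (187) scored 0.28. The part of cell composition, brightness, array signal or any other factor in this covariation was not tested.

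**Figure D5:**
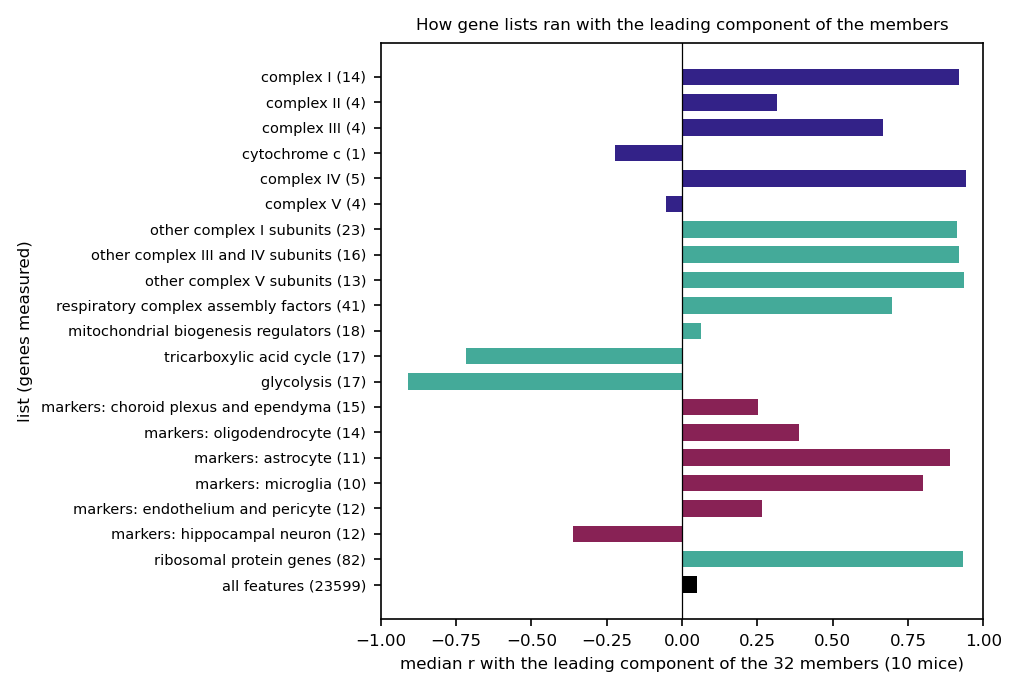
Median Pearson correlation with the leading component of the 32 genes over 10 mice, for the complexes (blue), other pathway and ribosomal lists (green), cell type markers (purple) and all features (black), with the number of genes measured in brackets. Complexes I and IV, other subunits and ribosomal protein genes stand at 0.912 to 0.942, and glycolysis at −0.911.

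The covariation depended on how ratios were formed. The median within complexes was 0.725 with median centring, 0.0952 with the Cy5 channel alone and 0.246 once the leading component of all features was removed. It was 0.322 in WT and 0.738 in cKO mice taken alone. With the component removed, all 496 pairs of the 32 genes had a median of 0.2345, where it had been 0.3275, and all pairs of features one of 0.0065. The closest pairs kept their sign in 30 of 30 alternatives, Ndufs4 with Ndufs6 at 0.741 to 0.992 and Cox4i1 with Cox5b at 0.617 to 0.998. The opposing pairs Sdha with Sdhd and Atp5a1 with Atp5o turned to 0.333 and 0.285 with that removal and were weaker with median centring, as given above. With Cy5 alone these opposing pairs were at −0.721 and −0.806. Other positive pairs kept their sign but weakened. Sdhc with Sdhd and Uqcrfs1 with Uqcrh fell to 0.0123 and 0.0216 once the leading component of all features was removed. Atp5a1 with Atp5b was at 0.731 with that removal and at 0.325 with Cy5 alone.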

How the data were processed

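Hippocampal RNA of 10 mice (5 WT, 5 cKO) was read on 10 arrays. The deposited scanner files hold median spot and background intensity in both channels, made with Agilent Feature Extraction 11.0.1.1 per the file headers, and processed signals with their log10 ratio. The authors' deposited table of log2 ratios (limma per the submitters' processing notes) served as an alternative. Its columns correlated with the ratios computed here at 0.99997 or more. Arrays held 44397 spots, 1377 of them controls, and 39429 probes. Spots marked non-uniform were removed, backgrounds corrected by normexp (offset 50) and ratios normalised by loess in limma 3.58.1 (R 4.3.3), with population outliers removed before averaging. The offset pulls ratios of dim spots towards 0. Probes with Cy5 well above background on at least 5 of 10 arrays were kept (28709), named through RefSeq accessions (26581 of 39429 probes, 67.4%), and the brightest stood for each gene. This gave 23599 features, 134 of them with missing values, none among the respiratory genes.

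Genotypes were compared with lmFit and eBayes, without covariates, over all features, with Benjamini-Hochberg adjustment and a threshold of 0.05. The labels do not describe litters or dissection days, and p-values measure only the spread between these mice. The genes and lists were chosen with earlier results of these data known. Values by mouse are given, in each complex, for the genes with the highest and lowest difference and for the most and least correlated pairs, and for the highest and lowest gene of each other list. Further genes were named after their values were seen. Alternatives covered background, normalisation, marked spots, filters, probes, slides, array weights, a replicate block and each mouse left out. The fit was tested on simulated data.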

Additional observations from a re-analysis of the deposited data

Results flagged for a closer look

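In 78 groups of 5 values (each of the 32 genes and each mean over a complex or over the set, in WT and in cKO mice), 5 groups had 1 mouse far from the other 4 by Dixon's criterion at 0.71. Chance flags about 1 in 20 groups. Atp5o was 0.557 in WT 5, against 0.862 to 0.882 in the other WT mice (ratio of gap to range 0.94). Sdhd was −0.0225 in WT 5, against 0.272 to 0.323 (0.852). Cox6c was 0.692 in WT 2, against 1.63 to 1.96 (0.744), and 3 cKO mice had similar low values. Uqcrc1 was 1.01 in WT 1, against 0.832 to 0.883 (0.72). The mean of the 5 complex IV genes was 0.952 in cKO 4, against 1.21 to 1.27 in the other cKO mice (0.812), and Cox6c was 0.57 in that mouse.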

How the results depend on the processing

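The counts of 0 respiratory chain genes and 0 genes of the other pathway lists past the threshold held in all 28 alternatives. At an unadjusted p under 0.05 the count of respiratory genes was 1 with median centring and 1 with slide as a random block (Cox6c in both), 3 within slide 2 alone (Ndufa2, Ndufb8 and Sdhd), 1 with array weights (Sdha), and 0 to 1 when a mouse was left out (Cox6c without WT 2 or cKO 1). Of all features 2.57%, 8.01%, 8.42% and 10.9% were below that p with median centring, the random block, slide 2 alone (1 cKO mouse) and array weights. The median difference was −0.0889 with median centring, which moved the median of all features to −0.0573. It was −0.113 with slide as a fixed block and −0.113 within slide 2, where all features were at 0.00115 and 0.00113. When a mouse was left out it was −0.0206 to 0.0259. The fitted correlation within slides was −0.129. For the 23 genes given by mouse, 85 of 644 differences under alternatives had the opposite sign and none passed. Map3k12 was at −1.79 with plain subtraction (adjusted p = 0.0612), −1.17 with Cy5 alone (0.102), −1.26 with all spots in the background fit (0.970) and −1.80 within slide 2 (0.113). The median correlation within complexes was 0.408 with an offset of 16, 0.400 with plain subtraction, 0.484 without background correction, 0.765 with processed signals, 0.0952 with Cy5 alone, 0.759 with scaling between arrays, 0.322 in WT mice, 0.738 in cKO mice, and 0.529 to 0.656 when a mouse was left out. Chosen after seeing the data, removal of the leading component of all features gave 0.246, and leaving out Cox6c gave 0.628 and a median difference of 0.0140. The causes of these shifts were not tested. Same-numbered mice did not deviate together (correlations of −0.56 to 0.16), but so few values do not settle whether the numbers pair them. With the replicate block the median difference was 0.0127, and 609 features had an unadjusted p under 0.05 in place of 913.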
